A study of Mus musculus with 2 samples.

Results

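The cells described here are immune cells of the mouse heart that carried transcripts of Cd209a or Flt3 together with abundant MHC class II transcripts. A cell was taken when it had at least 200 genes, at most 20% mitochondrial transcripts, at least 3 unique molecular identifiers (UMIs, the counted transcripts) of Cd209a and Flt3 together and at least 50 UMIs of H2-Aa, H2-Ab1, H2-Eb1 and Cd74 together. It also had to hold fewer than 10 UMIs of the complement genes C1qa, C1qb and C1qc, no UMI of Siglech, Cd79a, Xcr1 or Clec9a, and less than 0.1% of its UMIs from 6 genes of neutrophils (G0s2, Il1r2, Hdc, Mmp9, Csf3r and Cxcr2). This rule found 130 cells among 11297 cell barcodes, 56 of 6210 (sham) and 74 of 5087 (splenectomy). They are called Cd209a cells below.

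Both libraries came from hearts of male wild-type C57BL/6J mice aged 8 weeks, in which the left anterior descending coronary artery was closed for 60 min and reopened for 24 h. One group had its spleen removed and the other had sham surgery, so both carried the heart injury and neither was an uninjured control. CD45+ cells, that is leukocytes, were enriched with magnetic beads and sequenced as single-cell 3′ libraries, with 1 library in each group and no number of mice given in the sources used here. The spleen holds a reserve of monocytes and lymphocytes, and the comparison asks how the heart's immune cells differed when it was absent.

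Conventional dendritic cells take up antigen, load peptides on MHC class II and show them to T cells. Their type 2 subset carries lectins such as Cd209a and Clec10a, and in injured tissue it lies close in gene expression to cells that arise from monocytes. Growth of conventional dendritic cells depends on the receptor Flt3, and cells that leave the tissue for lymph nodes gain the chemokine receptor Ccr7.

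The Cd209a cells held 776014 UMIs (sham) and 1001947 UMIs (splenectomy). Depth per cell was alike, with 3557, 12888.5 and 34835 UMIs at the lowest, median and highest sham cell, and 6426, 12731.5 and 25714 in the splenectomy library. The median mitochondrial share was 1.64% and 2.11%. The libraries shared 9 barcodes, of which 1 belonged to a Cd209a cell and none to a Cd209a cell in both. Levels below are counts per 1000000 (CPM): the UMIs of a gene over the UMIs of all Cd209a cells of a library, scaled to 1000000. With 1 library per group, no test between the groups can be made, and every interval (95%, exact) covers counting error only.

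Cd209a cells were 0.912% of the cells that passed the gene and mitochondrial limits in the sham library (56 of 6140, Clopper-Pearson interval 0.690% to 1.18%) and 1.48% in the splenectomy library (74 of 5005, 1.16% to 1.85%). Among cells under the neutrophil limit alone the shares were 1.59% (1.21% to 2.06%) and 2.30% (1.81% to 2.88%). The share was thus higher in the splenectomy library over both denominators. Without the cells holding 10 or more Lyz2 UMIs, which are described further on, the shares of all kept cells were 0.733% and 0.839%, with 45 and 42 cells.

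The rule's first gene, Cd209a (ENSMUSG00000031494, chromosome 8, 3743397 to 3748984 on mm10, minus strand), encodes a C-type lectin of the DC-SIGN family. Its level was 774 CPM (sham) and 907 (splenectomy). Single cells held 2, 8 and 59 UMIs (lowest, median, highest) and 0, 10.5 and 47, so the ranges overlapped over nearly their whole length. Flt3 (chromosome 5, 147330741 to 147400489, minus strand) was far lower, at 25.8 and 44.9 CPM, and 12 of 56 and 26 of 74 cells held a UMI of it. Hence 44 and 48 cells entered the rule through Cd209a with no Flt3 UMI, and only 4 cells, all in the splenectomy library, held Flt3 without Cd209a. These values chose the cells and carry no test.

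Just inside the threshold, 8 and 11 cells held exactly 3 UMIs of the pair, and just outside, 20 and 17 cells held exactly 2. Klrd1 stood at 420 and 108 CPM in the cells just inside and at 275 and 325 in those just outside. Clec10a stood at 189 and 27.1 inside and at 157 and 217 outside. The 261 and 214 cells with no UMI of the pair held 52.9 and 13.2 CPM of Klrd1 and 55.2 and 28.3 CPM of Clec10a. The 11 splenectomy cells just inside thus held no more Clec10a than the cells with none, and the cells just outside held more of both genes than those with none.

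Klrd1 (CD94), a lectin-like receptor best known from natural killer cells, was present in 43 sham and 53 splenectomy cells, at 526 and 307 CPM. A natural killer gate (Nkg7 at 5 or more UMIs) held 627 and 702. Of 8 listed natural killer genes, Ncr1, Klrb1c, Prf1, Klra8, Eomes and Nkg7 had no UMI in Cd209a cells of either library. The remaining genes of that list held 13 UMIs (sham) and 5 (splenectomy), with at most 2 in a cell. Clec10a, a galactose-binding lectin, was found in 43 and 47 cells at 272 and 286 CPM. Ccl17, a chemokine that attracts Ccr4-bearing T cells, was held by fewer cells, 19 of 56 and 27 of 74, at 603 and 1113 CPM. A single cell gave 47.0% of the sham Ccl17 UMIs (220) and another gave 23% of those in the splenectomy library (256).

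**Figure D1:**
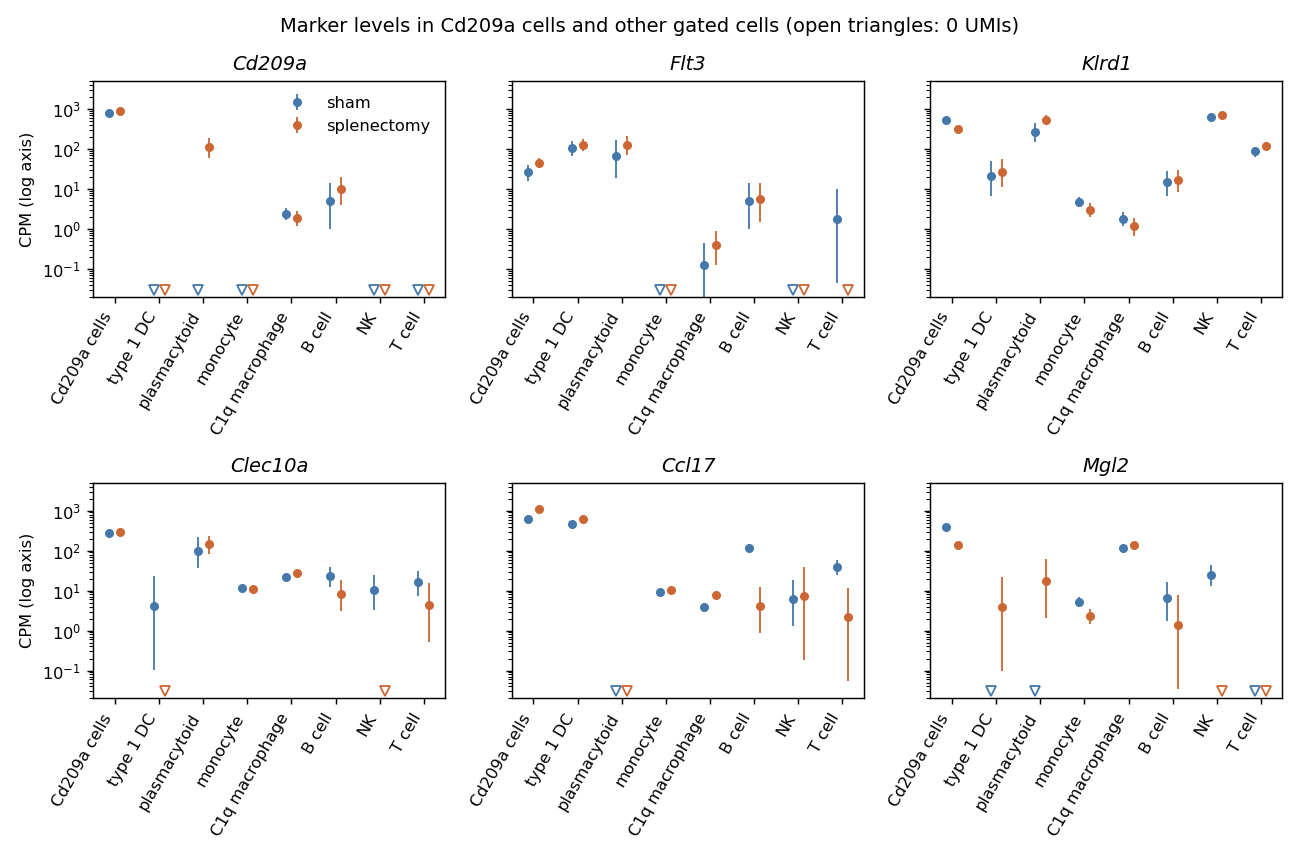
Levels of 6 marker genes in Cd209a cells and in 7 other gated populations, in CPM on a log axis, by library. Points are pooled levels, bars are exact Poisson intervals, and open triangles at the foot mark 0 UMIs. Cd209a lay at 774 and 907 in Cd209a cells and at 0 in the monocyte gate, whose rule demands 0. Flt3 lay higher in the type 1 dendritic gate (104 and 127) than in Cd209a cells.

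The label of conventional dendritic cells was met in part. Zbtb46, a factor of conventional dendritic cells, was found in 10.7% and 16.2% of cells and Itgax (CD11c) in 66.1% and 56.8%. Of the 8 listed genes of conventional dendritic cells, Itgax, Dpp4, Id2 and Cbfa2t3 were found in at least 25% of cells in both libraries. Flt3, a gene of the rule, reached that share in the splenectomy library only. Of 10 type 2 genes, 8 and 6 reached it. Those in both libraries were Cd209a (a gene of the rule), Clec10a, Sirpa, Itgam, Klf4 and Kmo. In the type 1 dendritic gate (2 or more UMIs of Xcr1 and Clec9a, 11 and 14 cells), Flt3 was found in 81.8% and 78.6% of cells, against 21.4% and 35.1% here at 12888.5 and 12731.5 UMIs a cell. Genes of classical monocytes were common too: Ccr2 was found in 87.5% and 86.5% of Cd209a cells, Ms4a4c in 96.4% and 81.1%, Plac8 in 94.6% and 77.0%, and Fcgr1 (CD64) in 58.9% and 35.1%. Of their 12-gene list, 8 and 9 genes were found in at least 25% of cells. Chil3 was found in only 17.9% and 17.6% and Vcan in 5.36% and 10.8%. The list summed to 3755 and 5322 CPM. It summed to 21121 and 23766 in the monocyte gate (2 or more Ly6c2 UMIs with Ccr2) and 5006 and 4998 in the B cell gate. Lyz2 alone gave 2743 and 2514 CPM of the B cell sum, and the part of free RNA in these sums was not tested. The name Cd209a cells is used for that reason, without a claim on their origin.

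Most markers of other leukocytes were scarce, in part because the rule demands it. The rule sets Cd79a to 0 and limits the C1q genes and 6 neutrophil genes, which bounds the sums of the B cell, macrophage and neutrophil lists. The T cell list held 0 and 2 UMIs in all. The B cell list summed to 39.9 and 46.9 CPM, with Cd79a, Ms4a1, Ebf1, Pax5 and Iglc2 at 0 in both libraries. Its gene Ighm, however, was found in at least 25% of Cd209a cells in both libraries. Macrophage genes summed to 235 and 321, with Mertk at 0. Apoe, a gene of that list, was found in 35.7% and 40.5% of Cd209a cells. Its level was 125 and 151 CPM, against 3022 and 3002 in the other cells under the neutrophil limit. The neutrophil list summed to 412 and 582. S100a8 was found in 64.3% and 63.5% of Cd209a cells, and at 2000 UMIs a cell in 16.1% and 17.6%, below the 28% and 33.9% of the B cell gate, and the part of free RNA was not tested. At full depth the B cell gate had S100a8 in 50.5% and 50.9% of cells, with median depths of 3660 and 3883 UMIs. Il1r2, the decoy receptor of interleukin 1, differed from this: 83.9% and 75.7% of Cd209a cells held it, at 214 and 192 CPM, against 55.3 and 74.2 in the monocyte gate and 29.2 and 29.0 in the B cell gate. It is 1 of the 6 genes of the neutrophil limit, and leaving it out of that limit admitted 7 more cells in each library.

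Outside the rule, the genes that set the Cd209a cells apart from the 3458 and 3138 other cells under the neutrophil limit included genes of antigen handling, lectins and receptors better known from lymphocytes. Of 1903 genes with 50 or more UMIs in both libraries' Cd209a cells, 104 (5.47%) were at least 2-fold higher than in the other cells in both libraries. After Ccl17, Klrd1 and Clec10a, the gene with the largest ratio was Ifitm1, an interferon-induced membrane protein, at 1751 and 1753 CPM against 132 and 175 in the other cells. P2ry10, a lysophospholipid receptor, followed with 133 and 132 against 14.1 and 14.3. H2-DMb1, a subunit of the peptide loader H2-DM, stood at 1420 and 1196 against 158 and 147, and Klrk1 (NKG2D) at 125 and 109 against 15.3 and 10.2. Since the cells were chosen by expression, these values describe them and are no test. The other cells included 1047 and 810 cells of a C1q macrophage gate (10 or more C1q UMIs) and 765 and 646 of the monocyte gate. A large ratio over them does not make a gene particular to Cd209a cells.

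The other leading genes by this ratio were Ramp3, H2-DMb2, Cd7, Plscr1, Ccr7, Tnip3, Avpi1, Gpr171, Pxdc1, Trerf1, Ckb, Map4k1 and Tmem176a. Of these, Ccr7 was found in 81.1% and 77.6% of the B cell gate, against 37.5% and 25.7% of Cd209a cells. Ckb, the brain-type creatine kinase, was held by 94.6% and 90.5% of Cd209a cells, against 39.6% and 32.7% of the other cells. Its level was 778 and 639 CPM against 162 and 135. H2-DMb1 and H2-DMb2 are close copies, so reads of one may have been counted for the other. At the other end, macrophage genes were lowest. Pf4, a platelet and macrophage chemokine, had 24.5 and 23 CPM against 2183 and 2057, and Arg1, an arginine-degrading enzyme of macrophages, 30.9 and 40.9 against 1179 and 1450. Ccl7, Cxcl1, Ccl2, Spp1, Apoe, Ctsl, Ccl12 and Msr1 completed the 10 lowest.

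Over the 8 populations in both libraries (16 points, which share libraries and differ in depth), the level of Cd209d followed that of Cd209a most closely, with a Pearson correlation of 0.89 on the scale log10(CPM + 10). Cd209d is a neighbouring lectin gene of the same family, on chromosome 8 from 3871824 to 3878555, and reads may be shared between them. Lactb (0.85), Clec10a (0.85), Myo1g (0.82) and Rwdd1 (0.78) came next. The points include the Cd209a cells, chosen in part by Cd209a, and the monocyte gate, which demands that no Cd209a be present. The correlations thus rest in part on how the cells were chosen, and they are descriptions without a test.

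**Figure D2:**
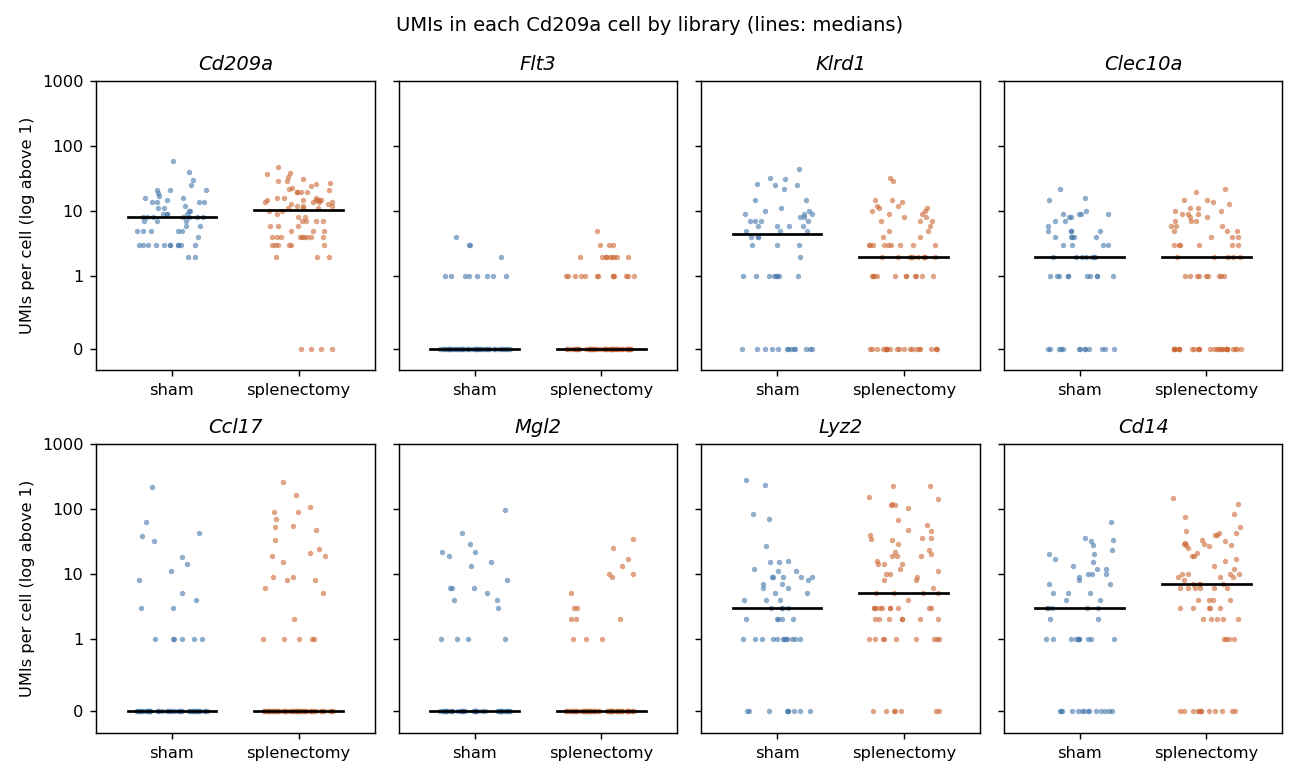
UMIs per cell of 8 genes in the 56 sham and 74 splenectomy Cd209a cells, on an axis that is logarithmic above 1. Each point is a cell and lines are medians. Ccl17 and Mgl2 were at 0 in most cells and reached 220 and 256 (Ccl17) in single cells, whereas the Lyz2 and Cd14 points extend higher in more splenectomy cells.

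The Cd209a cells were not uniform. Genes named for each division below were picked for ratios in the same direction in both libraries. Their agreement between the libraries is therefore no separate result. Cells with 3 or more Ccl17 UMIs (13 and 21) were set against cells with 0 (37 and 47), a division chosen after the values were seen. Mgl2, a galactose-binding lectin so similar to Clec10a that reads may be shared, was higher in the Ccl17-bearing cells, at 763 against 201 CPM for sham and 319 against 51.9 for splenectomy. The sham cell with 220 Ccl17 UMIs gave 96 of the 166 Mgl2 UMIs of the Ccl17-bearing sham cells. Bcl2a1a, an inhibitor of cell death, was higher by 2.45 and 2.52 on the log2 scale, and AA467197 by 1.79 and 1.95. Clec4n, Capg, Bcl2a1b, Bcl2a1d and H2-DMb2 were also higher in both libraries, and the Bcl2a1 copies may share reads. Monocyte genes were lower there: Plac8 stood at 331 against 1241 and at 146 against 1012, and Ly6c2 at 87.4 against 190 and at 17.9 against 192.

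Of the 19 and 27 cells with Ccl17, 14 and 11 also held Mgl2, whereas 6 and 5 cells held Mgl2 without Ccl17. Cells with a Ccr7 UMI (21 and 19) formed a further division, also chosen after the values were seen. Cd83, a maturation marker of dendritic cells, was at 710 against 321 CPM (sham) and at 837 against 445 (splenectomy) in these cells. Nfkbia, the inhibitor that NF-kB itself induces, stood at 1633 against 935 and at 2344 against 1230. Fscn1, an actin-bundling protein of mature dendritic cells, had no sham UMI and 115 splenectomy UMIs, all in 1 cell. That cell count allows no comparison of mature cells.

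Another division, chosen in the same way, followed Lyz2, the lysozyme gene of monocytes and macrophages. Cells with 10 or more Lyz2 UMIs were 11 of 56 in the sham library (19.6%, interval 10.2% to 32.4%) and 32 of 74 in the splenectomy library (43.2%, 31.8% to 55.3%). Against the cells with fewer, they held more Fn1 (fibronectin) by 4.75 and 3.87 on the log2 scale, more Cxcl2, a neutrophil attractant, by 3.52 and 4.15, and more Cd14, the endotoxin co-receptor, by 1.36 and 2.33. In the sham library these ratios leaned on single cells. There 1 cell gave 80.9% of all Fn1 UMIs, and 1 cell gave 56.2% of those of Cxcl2. Only 3 of the 11 sham cells with 10 or more Lyz2 UMIs held Fn1. Ccl2, Apoe, Ccl6, Ier3, Cebpb and Ly6c2 were higher in both libraries as well. Klrd1 was lower, at 142 against 633 and at 134 against 452 CPM, and so was Ckb, at 243 against 927 and 358 against 873. Flt3 went the other way from Lyz2: cells with a Flt3 UMI had 328 CPM of Lyz2 against 1418 (sham) and 467 against 2741 (splenectomy). Single sham cells without Flt3 held 279 and 230 of the 904 sham Lyz2 UMIs, and Flt3 is a gene of the rule.

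Lyz2 was also found in B cells. At 2000 UMIs a cell it was found in 41.1% and 62.2% of Cd209a cells, 26.2% and 31.3% of the B cell gate and 97.6% and 99.5% of the monocyte gate. At full depth it was found in 83.9% and 90.5% of Cd209a cells and in 36.9% and 51.7% of the B cell gate. Removing the cells with the highest doublet scores, 302 and 200 of all kept cells, took none of the Cd209a cells. The part of RNA from a second cell in the Lyz2-rich cells was not tested beyond this.

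**Figure D3:**
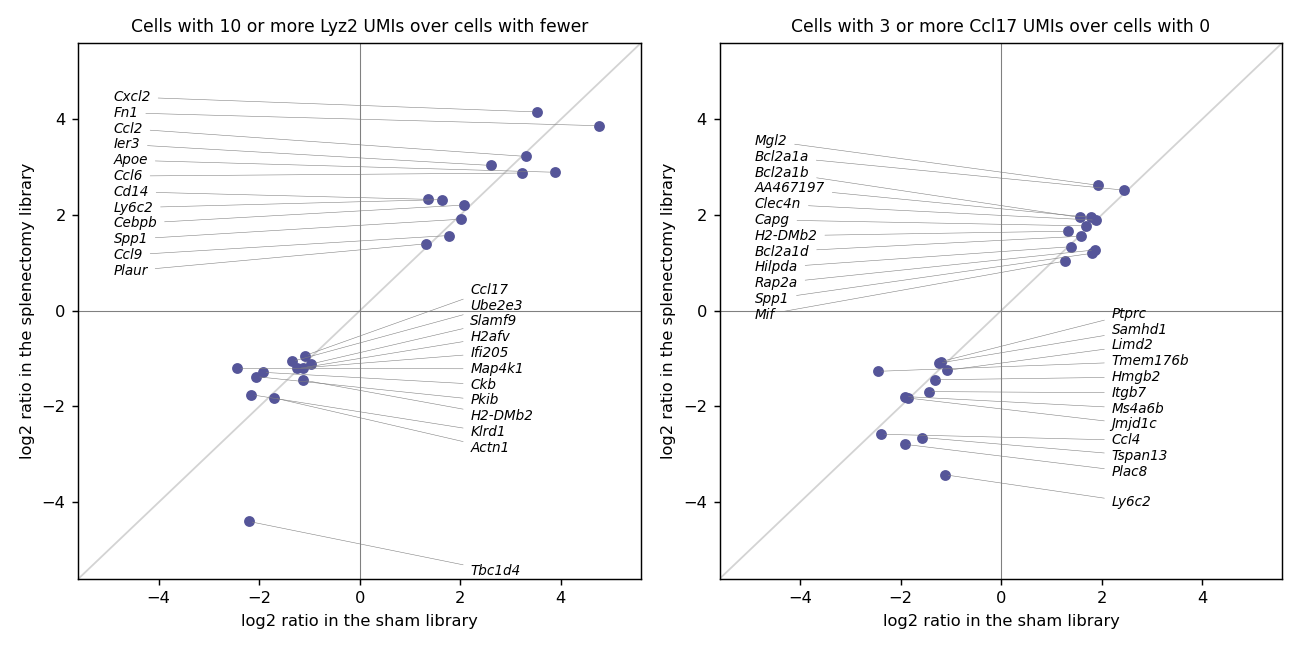
Log2 ratios within Cd209a cells in the sham library (horizontal) and the splenectomy library (vertical), for cells with 10 or more Lyz2 UMIs over cells with fewer (left) and for cells with 3 or more Ccl17 UMIs over cells with 0 (right). Each labelled point is a gene named by the size of its smaller ratio, with the same direction in both libraries required. The grey line marks equal ratios. Cxcl2 and Fn1 lie furthest up on the left (3.52 and 4.15, 4.75 and 3.87) and Mgl2 and Bcl2a1a on the right. Tbc1d4 had 0 UMIs in the 11 sham cells, so its sham ratio is set at 3 UMIs.

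Between the libraries, the higher genes in splenectomy Cd209a cells included Saa3, Chil3 and Hmox1, and the lower genes included the lectin Mgl2 and the interferon-induced Ifi27l2a and Oas1a. Of the 12 classical monocyte markers, all measured, 7 were at least 1.5-fold higher and none 1.5-fold lower, with a median of 0.70. Ly6c2 and Plac8 were at -0.25 and -0.30 on the log2 scale. Without the Lyz2-rich cells, Lyz2 (the gene of that division), Cd14, Ly6c2 and Plac8 stood at -0.17, 0.08, -1.19 and -0.48. Chil3 and Vcan then had fewer than 20 UMIs in both libraries, and no such values are given for the other markers. Over all 4599 genes with 20 or more UMIs in the higher library, 467 (10.2%) were 1.5-fold higher and 326 (7.09%) lower, and the median was 0.02. Of 2453 genes with 50 or more UMIs in the higher library, 52 (2.12%) were at least 2-fold higher after splenectomy and 13 (0.53%) at least 2-fold lower. Without the Lyz2-rich cells the counts were 15 and 10, of which 8 and 5 were among the former. Those cells held 21.8% (sham) and 45.5% (splenectomy) of the UMIs, so fewer genes could reach 50 UMIs without them. With Il1r2 left out of the neutrophil limit the counts were 46 and 26. Higher genes outnumbered lower genes in each of these 3 counts.

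The 10 highest genes were Saa3, F10, Chil3, Lpl, Vcan, Hmox1, Cxcl10, Il1rn, Mmp19 and Thbs1. Saa3, an acute-phase protein, had 5.15 CPM in the sham library (4 UMIs in 3 cells) and 132 in the splenectomy library (132 UMIs in 13 cells), a log2 ratio of 4.68 (3.29 to 6.57). F10, coagulation factor X, had 3 UMIs against 64, a log2 ratio of 4.05 (2.43 to 6.36). Hmox1, the haem-degrading enzyme, was found in 8 and 24 cells at 10.3 and 115 CPM, a ratio of 3.48 (2.45 to 4.72). The matrix and lipid genes Vcan, Mmp19, Thbs1 and Lpl were higher by 3.61, 2.54, 2.34 and 3.67.

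These genes came from few cells. A single splenectomy cell gave 50.6% of the Chil3 UMIs, 71.9% of those of Cxcl10 and 50% of those of Il1rn. The 32 Lyz2-rich cells, which held 45.5% of all UMIs, gave between 81.7% (Hmox1) and 99.2% (Cxcl10) of the UMIs of each of the 10 genes in the splenectomy library. Without them, Hmox1 was higher by 2.22 and Thbs1 by 1.09, and the other 8 genes had fewer than 20 UMIs in both libraries. The groups' ranges over cells overlapped for all 10, since each library had cells with none.

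The 10 lowest genes were Iqcb1, Qpct, Lgals3bp, Mgl2, Ly6a, Oas1a, Ifi27l2a, Eva1b, Rnase6 and H2-Q7. Mgl2 was held by 20 of 56 sham and 16 of 74 splenectomy cells, with 392 and 138 CPM, which is -1.51 on the log2 scale (-1.81 to -1.21). It stayed at -1.66 without the Lyz2-rich cells. Ifi27l2a, an interferon-induced gene, had 24 UMIs in the median sham cell and 7 in the median splenectomy cell, at 2482 and 1111 CPM and a ratio of -1.16 (-1.27 to -1.05). Ly6a (Sca-1) stood at 406 and 148 and Oas1a at 78.6 and 28.9. Iqcb1 rested on few cells, since 1 sham cell gave 50.9% of its 57 sham UMIs.

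**Figure D4:**
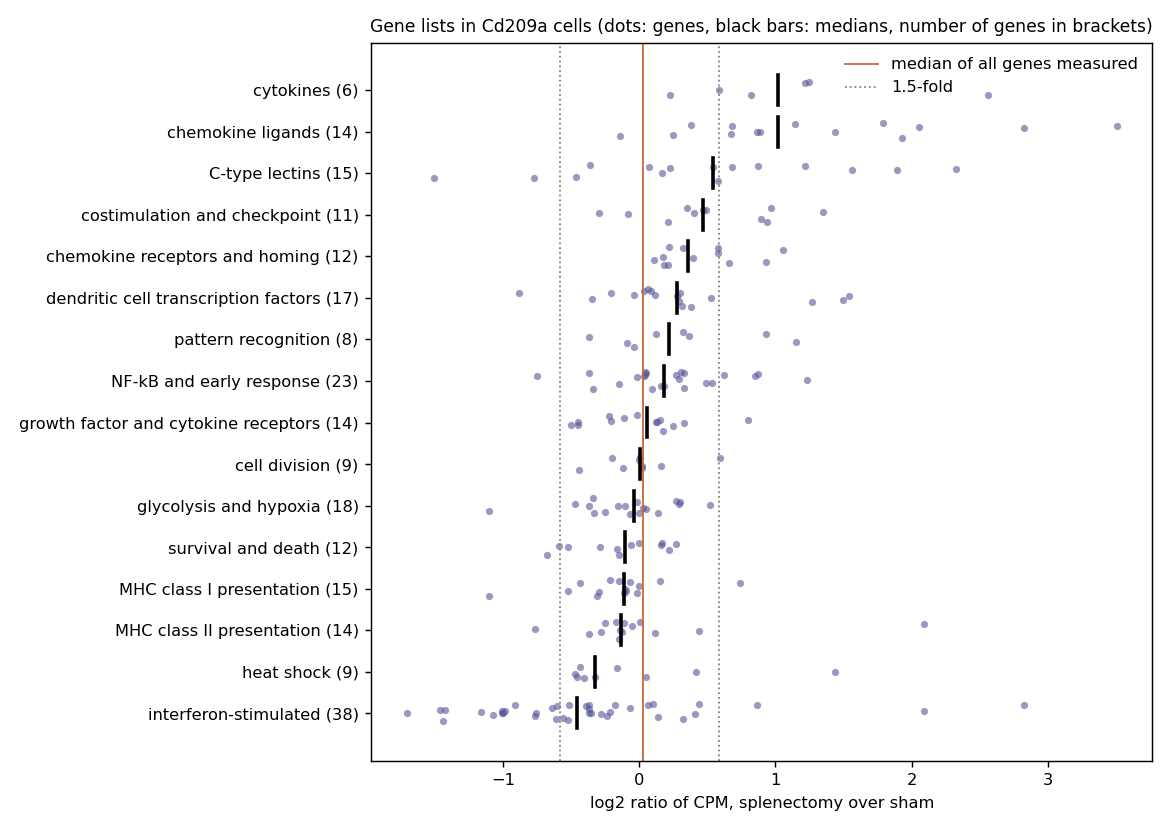
Log2 ratios of splenectomy over sham in Cd209a cells for the measured genes (20 or more UMIs in the higher library) of 16 gene lists. Dots are genes, black bars are list medians, the orange line is the median of all measured genes (0.02) and dotted lines mark 1.5-fold. The cytokine and chemokine medians lie at 1.02 and 1.01 and the interferon-stimulated median at -0.45.

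The core function of these cells, antigen presentation on MHC class II, differed little between the libraries in the cells that the rule kept. H2-Aa stood at 6358 and 6399 CPM, which differ by 0.01 on the log2 scale (-0.04 to 0.06), and Cd74, the invariant chain, at 16540 and 15971. Of 14 measured genes of the list, 1 was at least 1.5-fold higher (H2-Oa, an inhibitor of H2-DM, 10.3 and 43.9) and 1 lower (H2-DMb2, 160 and 93.8), with a median of -0.13. The rule's limit of 50 class II UMIs uses 4 of these genes, H2-Aa and Cd74 among them, so their levels describe cells chosen for them. Of the cells with 3 or more UMIs of Cd209a and Flt3, the limit left out 6 of 83 in the sham library and 17 of 108 in the splenectomy library, so it removed cells low in class II unequally. MHC class I genes were alike, with 1 higher, 1 lower (H2-Q7) and a median of -0.11 over 15 genes.

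Signals to T cells were higher in part. Of 11 measured genes of costimulation and of checkpoint (inhibitory) signals, 4 were at least 1.5-fold higher and none lower, with a median of 0.47. Slamf7 stood at 30.9 and 78.8 CPM, Cd274 (PD-L1) at 24.5 and 47.9, Cd40 at 24.5 and 46.9 and Tnfsf9 (4-1BB ligand) at 125 and 233. Cd86 was at 148 and 209 and Cd83 at 469 and 544. Without the Lyz2-rich cells the list's median was 0.57, so this difference was as large among the other cells.

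Cytokine and chemokine genes had the highest medians. Il1b, the interleukin 1 gene that nearly every cell held (55 of 56 and 73 of 74), had 38 UMIs in the median sham cell and 54.5 in the median splenectomy cell, at 3368 and 5062 CPM. Of 6 measured cytokine genes 5 were 1.5-fold higher and none lower, and of 14 chemokine genes 11 were higher and none lower. Cxcl2 stood at 644 and 2671, but its median cell held 3 UMIs in both libraries and 1 cell gave 56.2% of the sham UMIs. Without the Lyz2-rich cells Cxcl2 stood at 196 and 309, and the medians of the cytokine and chemokine lists were 0.28 and 0.55. The B cell gate held 592 and 1683 CPM of Il1b and 2017 and 4159 of Cxcl2, so both genes were also higher in splenectomy B cells, and the part of free RNA in these values was not tested.

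The T cell attractants were concentrated in few cells. Ccl17 was 0.88 higher on the log2 scale (0.73 to 1.04) with about the same share of cells, 33.9% and 36.5%. Ccl22, its relative, stood at 45.1 and 172 CPM, in 9 and 10 cells, and 1 splenectomy cell gave 45.3% of its UMIs. With 5 rather than 3 UMIs of Cd209a and Flt3 required, the Ccl22 ratio was -1.01, and with Cd209a alone at 3 or more it was -0.77. Ccr7 was found in 37.5% and 25.7% of cells at 113 and 170 CPM, and 1 splenectomy cell gave 48.2% of its UMIs. Without the 1 cell with Fscn1 the ratios of Ccl22 and Ccr7 were 1.09 and -0.33.

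Some receptors of microbial and dead-cell products were higher in the splenectomy library. Of 15 measured C-type lectins 6 were 1.5-fold higher and 2 lower (Mgl2 and Klrd1), with a median of 0.54, and of 0.42 without the Lyz2-rich cells. Clec4e (Mincle), a receptor for dead cells and mycobacteria, was at 65.7 and 329 CPM, and the Lyz2-rich cells gave 87.6% of its UMIs in the splenectomy library. Cd209d stood at 34.8 and 103 in 6 and 22 cells. Of 8 measured genes of pattern recognition, Cd14 (561 and 1247) and Tlr2 (88.9 and 170) were higher and none lower. Without the Lyz2-rich cells Cd14 was at 418 and 441.

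Transcription factors of dendritic cells were mostly level. Of 17 measured, 3 were 1.5-fold higher, namely Id2 (101 and 242), Irf8 (32.2 and 93.8) and Batf3 (14.2 and 39.9), and Irf4 was lower (25.8 and 14.0, log2 interval -1.98 to 0.17), with a median of 0.28. Irf8 and Batf3 are factors of type 1 dendritic cells and Irf4 of type 2, and the type 1 genes Xcr1, Clec9a and Cadm1 were at 0 in both libraries, the first and second by the rule. Id2 was higher by 1.33 without the Lyz2-rich cells. One splenectomy cell gave 34.0% of the Irf8 UMIs.

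Among chemokine receptor and homing genes, Gpr35 stood at 32.2 and 66.9 CPM and Gpr183, an oxysterol receptor that guides immune cells, at 64.4 and 123. Of 14 growth factor and cytokine receptor genes Flt3 was higher and none lower, with Csf2ra, the receptor of GM-CSF, at 263 and 296 CPM. Since Flt3 is a gene of the rule, its level describes cells chosen in part for it and is no separate result. Glycolysis (18 genes, median -0.04), cell division (9 genes, median 0.01), survival (12 genes, median -0.10) and heat shock genes (9 genes, median -0.32) held 0, 1, 0 and 1 gene higher and 1, 0, 2 and 0 lower. Of 23 measured genes of NF-kB and the early response 4 were higher, among them Ier3 (160 and 375), and 1 was lower (Fosb, 233 and 139).

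Interferon-stimulated genes were lower in splenectomy Cd209a cells. Of 38 measured genes 16 were at least 1.5-fold lower and 3 higher, with a median of -0.45, and the list summed to 6599 CPM (sham) and 4100 (splenectomy). Without the Lyz2-rich cells the median was -0.72. Bst2 (tetherin, a restriction factor of budding viruses) had 5 UMIs in the median sham cell and 2.5 in the median splenectomy cell, at 479 and 239 CPM and a ratio of -1.01 (-1.25 to -0.77). Phf11a was at 61.9 and 19.0. The 3 higher genes were Isg15, Oasl1 and Cxcl10. Isg15, a ubiquitin-like modifier, was held by 62.5% and 60.8% of cells, and 1 splenectomy cell gave 47.3% of its UMIs. Its ratio was 0.87, and -0.15 without the Lyz2-rich cells.

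The promoters of 4 of these genes are shown because each holds the core of the element that interferon-activated factors are known to bind, and because 3 of the genes were lower (Oas1a, Phf11a and Bst2) and 1 was higher (Isg15). Each line gives the 150 bases before the gene's start, on the gene's strand, from RefSeq (GRCm38.p6). Capitals mark the motif GAAANNGAAA, searched on both strands, with overlapping matches joined. Oas1a is at chr5:120907526-120907675, Phf11a at chr14:59297523-59297672, Bst2 at chr8:71537473-71537622 and Isg15 at chr4:156200819-156200968, all on the minus strand.
Oas1a: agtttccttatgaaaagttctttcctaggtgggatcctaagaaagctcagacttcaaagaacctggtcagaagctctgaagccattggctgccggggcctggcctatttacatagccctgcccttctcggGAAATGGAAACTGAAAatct
Phf11a: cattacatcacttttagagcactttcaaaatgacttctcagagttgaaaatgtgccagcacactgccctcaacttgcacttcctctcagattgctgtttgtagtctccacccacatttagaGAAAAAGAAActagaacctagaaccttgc
Bst2: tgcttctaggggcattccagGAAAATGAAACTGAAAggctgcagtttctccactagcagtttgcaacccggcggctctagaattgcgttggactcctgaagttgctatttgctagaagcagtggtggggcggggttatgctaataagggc
Isg15: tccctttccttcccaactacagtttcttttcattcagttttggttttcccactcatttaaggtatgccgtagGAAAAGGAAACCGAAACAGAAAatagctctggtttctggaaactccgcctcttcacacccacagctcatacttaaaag

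The motif lay in the 250 bases before the start in 13 of the 29 measured interferon-stimulated genes that the promoter table holds, of 38 measured (44.8%). Of all 27025 genes with a promoter sequence, 936 (3.46%) had it, and of the 20 leading genes of the Cd209a cells, 15 were in the table and none had it. It was present both in genes that were lower, such as Oas1a (-1.44) and Bst2, and in Isg15 (0.87) and Cxcl10 (2.82). A match shows letters and not binding.

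The interferon-stimulated list was lower in other myeloid cells of the same libraries as well. In the monocyte gate (765 and 646 cells) 41 of 61 measured genes were 1.5-fold lower and none higher, with a median of -0.75, where 6% of all genes were lower and 3.79% higher. In the C1q macrophage gate (10 or more C1q UMIs, 1047 and 810 cells) 51 of 62 were lower and none higher, with a median of -0.82, where 3.6% were lower and 4.71% higher. In the B cell gate (3 or more Cd79a UMIs, 111 and 116 cells) 5 of 29 were lower and 4 higher, with a median of 0.10, where 8.12% were lower and 9.16% higher. Ifi27l2a was lower in all 4 populations, by ratios of -1.16 in Cd209a cells, -1.12 in monocytes, -0.74 in macrophages and -0.86 in B cells. Cxcl10 was at 146 and 191 CPM in monocytes and at 209 and 151 in macrophages. These ratios come from the same 2 libraries, so a property of a whole library and an effect of splenectomy cannot be told apart.

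**Figure D5:**
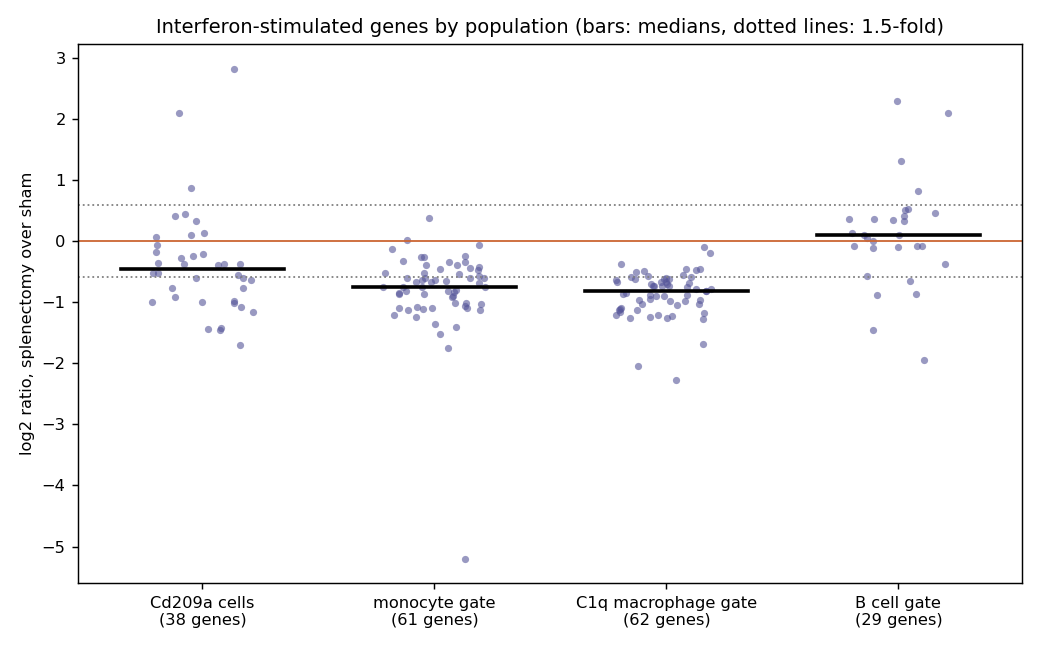
Log2 ratios of splenectomy over sham for the measured genes of the interferon-stimulated list in 4 gated populations. Dots are genes, bars are medians (-0.45, -0.75, -0.82 and 0.10 from left to right) and dotted lines mark 1.5-fold. The Cd209a cells have a wider spread than the macrophage gate, with Cxcl10 and Oasl1 above 2.

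The class II genes can be set side by side in the same populations. H2-Aa had ratios of 0.01 in Cd209a cells, -0.71 in monocytes, -0.26 in macrophages and 0.13 in B cells, and Cd74 had -0.05, -0.62, -0.26 and 0.00. The levels of H2-Aa in the monocyte gate, 356 and 218 CPM, were far below the 6358 and 6399 of Cd209a cells. H2-Aa and Cd74 belong to the class II limit that Cd209a cells had to meet, and the other gates as described above set no such limit. Their ratios in Cd209a cells thus describe cells chosen for these genes and are not like for like with the others. With 1 library per group, whether the ratios differ between populations cannot be tested either.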

How the data were processed

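The deposited matrices hold whole-number counts of UMIs for 32285 features in each cell barcode. The submitters' processing notes name Cell Ranger (version 5.0.0), STAR and build mm10. The sources used here do not give the gene annotation. The library whose title names SPX was taken as splenectomy and the other as sham, per the labels and the design text. Gene positions are from GENCODE vM21 on the same build.

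Counts of the chosen cells were summed per library and divided by their total. Ratios carry exact intervals for 2 Poisson counts, shares carry Clopper-Pearson intervals, and a count of 0 was set to 3 in a ratio. Genes were counted at 2-fold with 50 UMIs, and list genes at 1.5-fold with 20 UMIs, in the higher library. Named between the libraries were the 10 highest and 10 lowest ratios with 50 UMIs, a UMI in 10% of the cells of the higher library and 1.5-fold. Named for the Cd209a cells were the 20 largest ratios over other cells by the smaller of both libraries, with 50 UMIs and 25% of cells in each. Named for Cd209a were the 5 genes with the highest correlation. Mitochondrial, ribosomal, haemoglobin, predicted and receptor segment genes were not named. A planned contrast of cells with only Cd209a and only Flt3 could not be made, since no sham cell lacked Cd209a. Doublets were kept, and Scrublet within scanpy 1.11.5 served as an alternative. Of the list symbols, 3 were not among the features. The cells, lists and tests were chosen with earlier results of these data known. The code was checked on simulated data. There were 17 alternative settings listed at the outset and 5 that were chosen after seeing the data.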

Additional observations from a re-analysis of the deposited data

How the results depend on the processing

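With 1 library per group no replicate could be left out, and no paired analysis was possible because each group has 1 library. The share of Cd209a cells was 0.57 percentage points higher in the splenectomy library, and 0.39 to 0.78 points higher under the other settings, except with Flt3 alone at 3 or more UMIs (0.031 points, 3 and 4 cells, too few for gene ratios) and without the cells holding 10 or more Lyz2 UMIs (0.106 points). The 52 genes at least 2-fold higher became 25 with a minimum of 100 UMIs and 15 without the Lyz2-rich cells, and 45 to 61 otherwise. Without the Lyz2-rich cells fewer UMIs were left, so fewer genes could reach the minimum. The 13 lower genes became 6 with the minimum of 100 UMIs and 26 with Il1r2 left out of the neutrophil limit, and 10 to 18 otherwise. Higher genes were 80% of both together, 63.9% without Il1r2 in the limit and 60% without the Lyz2-rich cells. The interferon-stimulated median ran from -0.74 to -0.36 and the class II median from -0.15 to -0.06. Ccl22 turned direction with 5 UMIs of Cd209a and Flt3 (-1.01) and with Cd209a alone (-0.77), and the cause was not tested. The ratios of Lpl ran from 0.24 to 4.38, of Ccr7 from -0.76 to 1.34, of Isg15 from -0.15 to 0.98, of Ccl17 from 0.08 to 1.75, of Il1rn from 0.88 to 2.72, of Cxcl10 from 1.09 to 2.97, of F10 from 2.17 to 4.19, of Thbs1 from 1.09 to 3.43, of Saa3 from 2.88 to 5.73, of Hmox1 from 2.22 to 3.85, of Cd14 from 0.08 to 1.32, of Ifi205 from -1.35 to 0.34, of Chil3 from 3.08 to 5.20, of Mmp19 from 2.10 to 3.64, of Vcan from 2.63 to 4.19, of Lyz2 from -0.17 to 1.52, of Ly6c2 from -1.19 to 0.19, of Qpct from -2.87 to -1.50, of Rnase6 from -1.35 to -0.56 and of Iqcb1 from -4.21 to -3.15. The cytokine median ran from 0.28 to 1.13 and the cell division median from -0.65 to 0.31. Alternatives without Fscn1, Chil3, Lyz2 or dividing cells, and without Il1r2 in the limit, were chosen after seeing the data. With 130 cells, genes under 20 UMIs could not be compared, and counting intervals do not cover differences between mice.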
